A study of Mus musculus with 3 samples.

Results

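PRDM9 is the zinc-finger protein that places meiotic recombination hotspots in mice, and 7 further genes encode proteins known as its partners or as readers of the marks it writes. The 8 genes described here, of 53843 annotated genes on the chromosomes with peaks, are Prdm9, its partners Hells, Cxxc1, Ewsr1, Ehmt2 and Cdyl, and the readers Zcwpw1 and Zcwpw2. They were chosen by name, and all 8 are kept whether or not they carry a peak. For each gene the H3K4me3 peaks within 1 kb of any annotated transcript start, the broad peak over a start and the PRDM9-dependent peaks inside the gene body were collected, with the GENCODE vM21 annotation of mm10. H3K4me3 was measured by ChIP-seq in whole adult testis of (C57BL/6J x CAST/Eij)F1 males of the Prdm9 genotype Humanized/CAST, aged 23 weeks, from which 2 ChIP libraries and 1 input were made. All 3 libraries share this genotype, and no other condition was analysed here. One copy of Prdm9 thus encodes a mouse protein with human zinc fingers, and the other encodes the CAST/Eij protein. No untreated, wild-type or knockout group was compared here. The study's methods describe 1 testis from each of 2 littermates, while the labels describe both testes of 1 male, in which case the spread between the replicates is technical.

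PRDM9 binds DNA through its array of zinc fingers, and its PR/SET domain trimethylates lysines 4 and 36 of histone H3 on the surrounding nucleosomes, before double-strand breaks form there. HELLS is a chromatin remodeller that opens chromatin at PRDM9 binding sites, CXXC1 is a CpG-binding subunit of the SETD1 methyltransferase complex, EWSR1 is an RNA-binding protein of the FET family, EHMT2 methylates lysine 9 of histone H3, and CDYL is a chromodomain protein. ZCWPW1 and ZCWPW2 hold a zf-CW domain and a PWWP domain, domain types that bind methylated lysines 4 and 36 of histone H3. The same mark, H3K4me3, also lies over active promoters without PRDM9, so the promoters of these genes and the PRDM9 binding sites within them appear in the same assay.

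The files hold 101978 narrow peaks and give depth as coverage of their centres, in total 17621116 fragments for replicate 1, 19094837 for replicate 2 and 1250138 for the input. The enrichment quoted for a peak is the authors' ratio over local background, estimated from both replicates together, on a scale where 0 means no enrichment. Where 3 fragment counts are given for a peak, they stand for replicate 1, replicate 2 and input in that order. Peaks with their centre outside the deposited PRDM9-independent regions, which are shared by mice with different Prdm9 alleles, were called PRDM9-dependent. This left 62533 PRDM9-dependent and 39445 PRDM9-independent narrow peaks. Testis is a mixture of cells, so more cells with the mark and more mark in each cell cannot be told apart. Germ cell markers had a narrow peak at a start in 8 of 9 genes, with a median enrichment of 50.1, from Tnp1 (9.43) to Sycp3 (113). Acrv1, a gene of the acrosome, lacked one, although a broad peak of 7600 bp covered its start. The Sertoli cell markers had narrow start peaks in 4 of 5 genes, with a median of 13.8, from Sox9 (11.0) to Wt1 (17.5), and Amh had none. Leydig cell markers had them in 4 of 5, with a median of 11.0, from Cyp17a1 (4.36) to Insl3 (15), and Hsd3b1 had none. Myoid and vascular markers had them in 3 of 4, with a median of 4.31, from Pecam1 (3.95) to Cdh5 (6.22). Myh11 had none, although a broad peak of 4500 bp covered a start of it. The 3 macrophage markers all had a narrow peak at a start, with a median of 3.01, from Cd68 (1.03) to Csf1r (5.23). No broad peak covered a start of Csf1r or Adgre1. Of 7 genes typical of other tissues 3 had a narrow peak at a start, Krt10 (47.3), Ckm (19.7) and Cpa1 (1.94). Their median of 19.7 lay above those of the 4 somatic testis lists. Alb, Apoa1, Ins2 and Umod had none.

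All 8 genes had a narrow peak within 1 kb of a transcript start, beside 77.4% of 21755 protein-coding genes. In 7 of them the strongest such peak was PRDM9-independent. The exception was Zcwpw1, whose sole peak by this rule was a PRDM9-dependent one inside the gene. A broad peak covered a start of all 8 genes, beside 76.5% of protein-coding genes. The strongest start peak had a median enrichment of 83.1 over the 8 genes, with a range from 2.36 to 113.5, while protein-coding genes with a start peak had a median of 37.6 and an interquartile range from 14.7 to 65.3. The widest broad peak over a start had a median width of 6550 bp in the 8 genes and of 3400 bp in protein-coding genes. Across the 56 annotated starts of the 8 genes, 26 had a narrow peak within 1 kb and 30 lay under a broad peak. Of the 21 starts of protein-coding transcripts, 15 had a narrow peak and 18 lay under a broad peak.

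**Figure D1:**
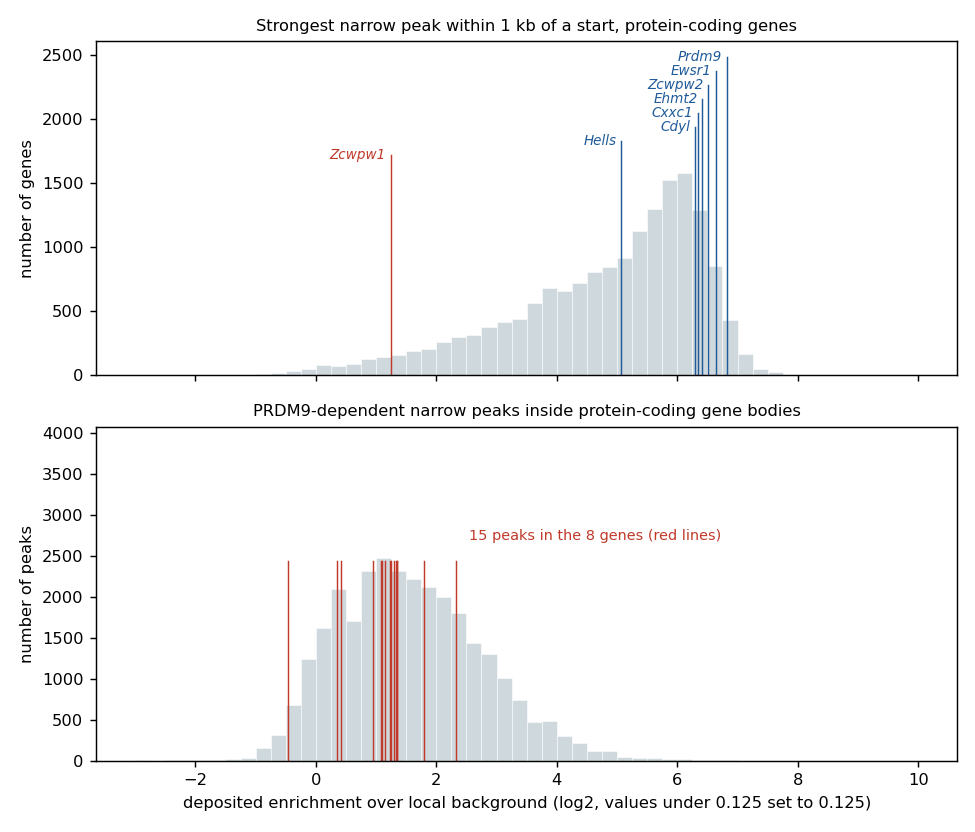
Deposited enrichment over local background on a log2 axis, with the number of genes (upper panel) or peaks (lower panel) per bin in grey. Vertical lines mark the strongest start peak of each of the 8 genes (blue, PRDM9-independent; red, PRDM9-dependent) and, below, their 15 PRDM9-dependent peaks. Prdm9 stands furthest right at 113.5 and Zcwpw1 furthest left at 2.36, and the intragenic peaks lie between 0.723 and 5.05.

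Prdm9 (ENSMUSG00000051977.16, chr17:15543079-15564354, minus strand) carried the highest deposited enrichment of the 8 at its promoter. The narrow peak centred at 15564640 had 514 and 693 ChIP fragments (replicates 1 and 2) against 5 input fragments, an enrichment of 113.5 that lay at percentile 97.0 of protein-coding genes with a start peak. Counted as ChIP fragments the same peak lay at percentile 45.2, and its input count of 5 lay at percentile 6.05. The rank rests on few input fragments: ChIP over input fragments was 241 with an exact 95% interval from 103.2 to 745. Without replicate 2 the ratio to the input, with 1 added to both counts, was 85.8 at Prdm9, below 95.4 at Ewsr1 and 88.6 at Zcwpw2. With no count added, replicate 1 over input was 102.8 at Prdm9, 100.6 at Ewsr1 and 94.5 at Zcwpw2. Without replicate 1, and with 1 added, the ratio was 115.7 at Prdm9, 105.9 at Ewsr1 and 94.1 at Zcwpw2. The change in order thus needed the added count, at an input of 5 fragments. So the promoter of Prdm9 ranked high by the ratio to background and near the middle by fragments. The centre lay 286 bp upstream of the outermost start, and the broad peak over it was 2400 bp wide, below the median of protein-coding genes. Of the 7 starts, 3 had the narrow peak within 1 kb and 5 lay under the broad peak. The starts of the remaining pair of protein-coding transcripts, at 15563301 and 15563323, lay 1339 and 1317 bp from the centre and so just outside the 1 kb limit, although still under the broad peak.

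The sequence around the outermost start of Prdm9 is shown because the peak covers it. It runs from 250 bp before to 30 bp after the start on the minus strand of mm10 (chr17:15564325-15564604), with CpG dinucleotides in capitals.
Prdm9 promoter: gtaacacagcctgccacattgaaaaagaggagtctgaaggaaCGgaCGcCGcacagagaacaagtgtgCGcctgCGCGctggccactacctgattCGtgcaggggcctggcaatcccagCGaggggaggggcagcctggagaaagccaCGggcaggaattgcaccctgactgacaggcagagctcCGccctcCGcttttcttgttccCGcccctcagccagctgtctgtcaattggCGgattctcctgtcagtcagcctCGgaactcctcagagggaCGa
The window holds 15 CpGs, and 67.9% of 32851 RefSeq promoter windows of the same length hold fewer.

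Prdm9 also carried a PRDM9-dependent peak within its own last coding exon, which encodes the zinc-finger array. The centre at 15544349 had 37 and 58 ChIP fragments (replicates 1 and 2) against 19 input fragments, with an enrichment of 2.22. Both ChIP libraries lay above the input, and the input itself was high, at percentile 97.7 of PRDM9-dependent peaks. A search of the translated reference exon (chr17:15543976-15545360) for the C2H2 pattern found 11 fingers in tandem, spanning chr17:15543988-15544890, a length of 903 bp. The peak centre fell in finger 7 of these, and the broad peak of 1200 bp covered the whole array. The finger units are 84 bp each, and any 2 of the 10 complete units were 94.0% to 100% identical, with a median of 96.4%. Finger 7 and its neighbours are shown on the coding strand, with capitals where a base differs from the most common base at that place over the 10 units.
Finger 6, chr17:15544387-15544470: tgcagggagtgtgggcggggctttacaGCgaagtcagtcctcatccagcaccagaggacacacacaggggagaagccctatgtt
Finger 7, chr17:15544303-15544386: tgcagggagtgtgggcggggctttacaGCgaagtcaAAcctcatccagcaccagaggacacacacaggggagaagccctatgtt
Finger 8, chr17:15544219-15544302: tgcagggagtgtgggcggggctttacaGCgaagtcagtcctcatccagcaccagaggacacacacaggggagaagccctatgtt
Finger 7 differed from the consensus at 4 bases and fingers 6 and 8 at 2 bases each. By the genotype in the labels neither chromosome of these mice carries this reference array, so the letters above are those the reads were mapped to and not those of the mice. The part of the repeats and of the arrays these mice carry in this peak was not tested.

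Among the partners, Hells, Cxxc1 and Ewsr1 each had a single narrow peak, at the promoter, and no PRDM9-dependent peak in the gene body. Hells (ENSMUSG00000025001.11, chr19:38930915-38971051, plus strand) had 1073 and 1140 ChIP fragments (replicates 1 and 2) against 31 input fragments at 38931156. Its enrichment of 33.5 was the lowest of the 7 PRDM9-independent start peaks and lay at percentile 46.3 of protein-coding genes. The input count was at percentile 92.2 and the ChIP fragments at percentile 63.3, so Hells showed the opposite pattern to Prdm9, lower by the ratio than by fragments. Its broad peak was 2400 bp wide, as at Prdm9. The centre lay 18 bp upstream of the start of a protein-coding transcript and 241 bp downstream of the outermost start.

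Cxxc1 (ENSMUSG00000024560.7, chr18:74216124-74221496, plus strand) had 1517, 1749 and 19 fragments in replicate 1, replicate 2 and input at 74216428, an enrichment of 80.8. The peak lay 297 bp downstream of the start of the protein-coding transcript, in an untranslated exon, under a broad peak of 5800 bp. Cxxc1 is the shortest of the 8 genes at 5.373 kb, so this broad peak was longer than the gene. It reached the start at 74217871, which lies 1443 bp from the centre and outside the 1 kb limit.

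Ewsr1 (ENSMUSG00000009079.16, chr11:5069689-5099266, minus strand) had the most fragments of the 8 genes at a start. At 5098644 the ChIP libraries held 1811 and 2011 fragments and the input 18, with an enrichment of 99.8. The centre lay in an intron 398 bp downstream of a protein-coding start. The broad peak of 7300 bp also held the start of Rhbdd3, 282 bp from the centre, so the mark at this promoter cannot be assigned to Ewsr1 alone. All 5 starts of its protein-coding transcripts lay within 1 kb of the centre, and its 7 inner starts of noncoding transcripts had no narrow peak.

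Ehmt2 (ENSMUSG00000013787.15, chr17:34898469-34914052, plus strand) showed both kinds of peak. The promoter peak at 34899179 had 1371 and 1721 ChIP fragments (replicates 1 and 2) against 17 input fragments, an enrichment of 85.5. It lay in a coding exon 208 bp downstream of a start, under a broad peak of 7700 bp that also held starts of C2 and Zbtb12 and a second narrow peak at 34894799 with 689, 787 and 13 fragments. A PRDM9-dependent peak at 34911129 had 24, 33 and 13 fragments in replicate 1, replicate 2 and input, an enrichment of 1.93. It lay 154 bp downstream of the start of a retained-intron transcript, so by the rule it counts as a start peak too. The ChIP counts of these peaks did not overlap, while their input counts of 17 and 13 were close.

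Cdyl (ENSMUSG00000059288.14, chr13:35659833-35874063, plus strand) is the longest of the 8 genes at 214.2 kb and had peaks at 2 groups of starts. At the outer one the centre at 35660444 had 145 and 188 ChIP fragments (replicates 1 and 2) against 2 input fragments, an enrichment of 78.3. This centre lay 517 bp from the nearest start of Cdyl and 333 bp from a start of the lincRNA Gm48707, so the mark cannot be assigned to Cdyl alone. At the inner one the centre at 35741820 had 845, 1079 and 12 fragments and an enrichment of 75.4. The enrichments were nearly equal although the inner peak had far more ChIP fragments. With 2 input fragments the outer ratio is imprecise: ChIP over input fragments was 166 with an exact 95% interval from 45.7 to 1381, against 160 (91.6 to 311) at the inner one. These intervals cover counting error only. The outer broad peak was 9000 bp wide and held 2 further PRDM9-independent narrow peaks, with enrichments of 9.66 and 4.94, and the inner one was 4500 bp wide.

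The sequences at the 2 starts of Cdyl are shown because they differ in CpG content while both are marked. Each runs from 250 bp before to 30 bp after the start on the plus strand of mm10, with CpGs in capitals.
Cdyl outer start, chr13:35659583-35659862: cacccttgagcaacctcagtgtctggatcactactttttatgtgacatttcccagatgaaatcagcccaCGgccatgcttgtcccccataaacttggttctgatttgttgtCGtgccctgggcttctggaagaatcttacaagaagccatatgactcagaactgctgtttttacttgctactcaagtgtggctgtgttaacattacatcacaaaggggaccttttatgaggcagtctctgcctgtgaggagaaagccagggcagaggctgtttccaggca
Cdyl inner start, chr13:35741063-35741342: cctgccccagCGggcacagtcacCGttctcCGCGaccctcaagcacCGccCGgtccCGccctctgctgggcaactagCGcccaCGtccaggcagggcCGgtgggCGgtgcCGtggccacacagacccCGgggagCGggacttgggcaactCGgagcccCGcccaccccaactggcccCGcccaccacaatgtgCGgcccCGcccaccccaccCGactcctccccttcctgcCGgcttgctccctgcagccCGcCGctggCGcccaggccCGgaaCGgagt
The outer window holds 2 CpGs, more than 15.9% of RefSeq windows, and has a GC content of 47.5%. The inner window holds 26 CpGs, more than 86.2% of RefSeq windows, and has a GC content of 75%.

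RefSeq promoter windows were matched for 7 of the 8 genes, 12 windows in all, and Cxxc1 was not matched. At Cdyl the RefSeq starts differ from the GENCODE starts of the sequences shown above, so the CpG counts differ too. Against a median of 6 CpGs over all RefSeq windows, the windows of Ehmt2 held 24 and 38 CpGs, that of Ewsr1 36, that of Hells 32, that of Zcwpw2 23 and those of Zcwpw1 14 and 21. The windows of Prdm9 held 9 and 15, and those of Cdyl 3, 31 and 32. Only the outer window of Cdyl held fewer CpGs than the median. A CpG count is a description of the window and was not tested against the mark.

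Zcwpw1 (ENSMUSG00000037108.13, chr5:137787798-137822621, plus strand), the reader of both marks, had no narrow peak centre within 1 kb of either protein-coding start. Its main start at 137787798 lay under the widest broad peak of the 8 genes, 11200 bp, which also held starts of Mepce and Ppp1r35. The nearest narrow centre inside it, at 137785928, was 1870 bp away, with 1151 fragments in replicate 1, 1253 in replicate 2, 29 in the input and an enrichment of 38.9. The start was therefore marked, but the summits of the region lay on the side of its neighbours. The peak that the rule takes as the start peak, at 137799000, had 30, 23 and 10 fragments and an enrichment of 2.36, at percentile 3.74 of start peaks, and lay 189 bp upstream of the start of a retained-intron transcript. It was PRDM9-dependent, as is the strongest start peak in 8.25% of protein-coding genes with one. Further PRDM9-dependent peaks lay in introns at 137814451 (12, 12 and 5 fragments, enrichment 2.13) and 137815744 (13, 16 and 6 fragments, enrichment 2.14).

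Zcwpw2 (ENSMUSG00000032443.16, chr9:117876000-118040259, minus strand) is annotated in GENCODE vM21 as a transcribed unprocessed pseudogene. Of 226 genes of this class, 35.4% had a narrow peak at a start. The peak of Zcwpw2 at 118040794 had 1417 and 1504 ChIP fragments (replicates 1 and 2) against 15 input fragments, with an enrichment of 91.6. It lay 535 bp upstream of the outermost start and 107 bp from a start of Azi2, a protein-coding gene, under a broad peak of 4900 bp that held both starts. The promoter mark can thus not be assigned to Zcwpw2 rather than Azi2. The inner starts of Zcwpw2 at 118013998 and 118014160, where most of its transcripts begin, had no broad peak, and their nearest narrow peak was 7416 and 7254 bp away.

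**Figure D2:**
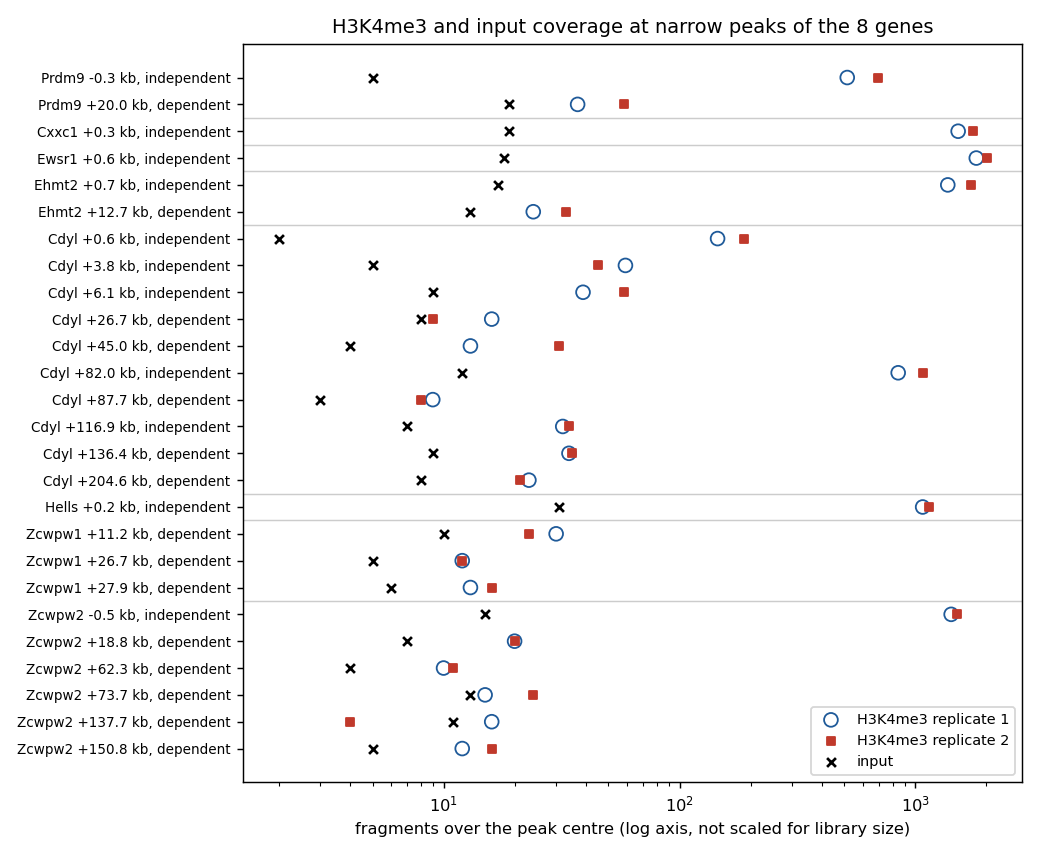
Fragments over the centre of each of the 26 narrow peaks of the 8 genes on a log axis, for H3K4me3 replicate 1 (open circles), replicate 2 (squares) and input (crosses), with the distance in kb from the outermost start and the class of the peak at left. Promoter peaks reach 1811 and 2011 fragments at Ewsr1, and PRDM9-dependent peaks stay at or below 58 fragments in either replicate.

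The 8 gene bodies held 15 PRDM9-dependent narrow peaks in 525 kb. They fell in 5 genes, beside 48.3% of protein-coding genes with at least 1 such peak: 5 in Cdyl, 5 in Zcwpw2, 3 in Zcwpw1 and 1 each in Prdm9 and Ehmt2. Per length this is 2.86 per 100 kb, with an exact 95% Poisson interval from 1.598 to 4.71, and the density over all protein-coding gene bodies was 2.92 per 100 kb. The interval includes the density of genes in general. Broad PRDM9-dependent peaks gave 17 in the same bodies, 3.24 per 100 kb, against 2.92. Cxxc1, Ewsr1 and Hells, which had none, have bodies of 5.373, 29.6 and 40.1 kb, and a count of 0 allows up to 3.69 peaks in each by the same interval.

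**Figure D3:**
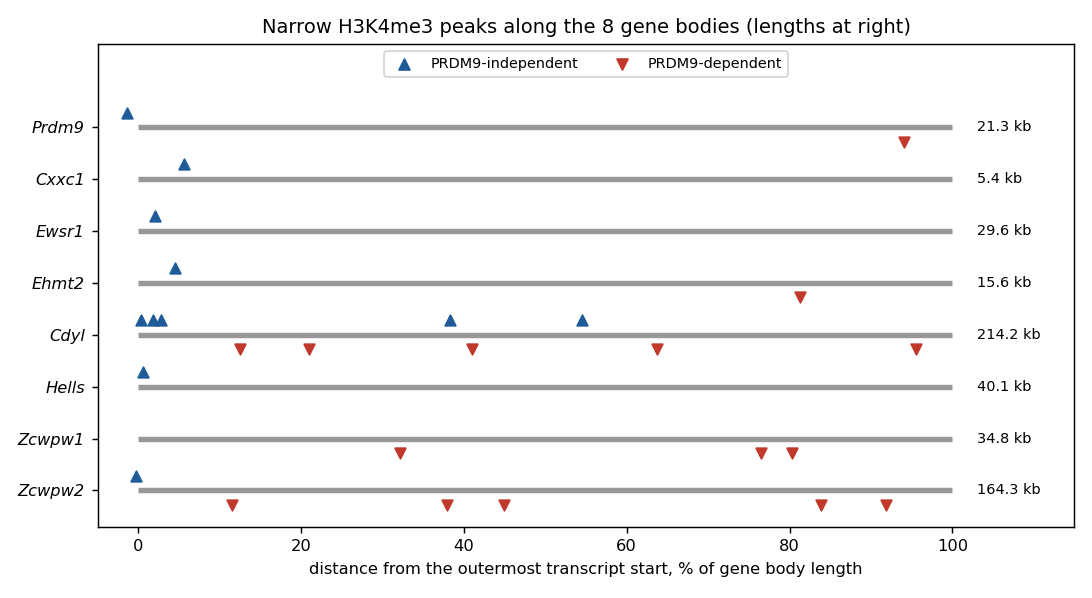
Narrow peaks of the 8 genes along the gene body, as percent of its length from the outermost transcript start (0) to the other end (100), with body lengths in kb at right. PRDM9-independent peaks (blue) gather at the starts, with those of the inner Cdyl promoter and a noncoding antisense start as exceptions, and the 15 PRDM9-dependent peaks (red) lie across the bodies.

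Beside the PRDM9-independent start peaks of the 8 genes, the intragenic PRDM9-dependent peaks were weak, but as a set not unusual for their class. Their median enrichment was 2.34, with a range from 0.723 to 5.05, against a median of 2.77 and an interquartile range from 1.62 to 5.11 over 29583 such peaks in protein-coding genes. Median coverage was 16 and 20 ChIP fragments (replicates 1 and 2) against 8 input fragments. Both replicates lay above the input in 14 of the 15, and in 87.8% of all PRDM9-dependent peaks inside protein-coding genes. Introns held 13 of them, and that of Prdm9 lay in a coding exon and that of Ehmt2 in an exon of a noncoding transcript.

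The highest deposited enrichment was in an intron of Cdyl, at 35704823, with 13 and 31 ChIP fragments (replicates 1 and 2) against 4 input fragments and an enrichment of 5.05. Replicate 2 was the higher, a difference with p = 0.0154 by the exact binomial test and an adjusted p of 0.368. The next, at 35796264 in Cdyl, had 34, 35 and 9 fragments and an enrichment of 3.48, with the replicates almost equal. Without replicate 2 the order turned, with a ratio to the input (1 added to both counts) of 2.80 at 35704823 and 3.50 at 35796264. The other Cdyl peaks were at 35686582 (16, 9 and 8 fragments, enrichment 1.34), 35747535 (9, 8 and 3, enrichment 2.53) and 35864423 (23, 21 and 8, enrichment 2.46). A PRDM9-independent peak at 35776709 (32, 34 and 7, enrichment 4.31) lay 187 bp from the start of the antisense gene Gm48708.

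In Zcwpw2 the 5 peaks lay at 117889483, 117902545, 117966518, 117977971 and 118021414. The weakest of all 15 was that at 117902545, with 16 and 4 ChIP fragments (replicates 1 and 2) against 11 input fragments and an enrichment of 0.723. Replicate 2 was here below the input, and no broad peak covered the centre. Its ratio of ChIP to input fragments was 1.82, with an exact 95% interval from 0.830 to 4.20 that includes 1. The peak at 117977971 (10, 11 and 4 fragments, enrichment 2.34) lay 530 bp from a PRDM9-independent region, closer than any other of the 15, which were at least 4235 bp away. The other 3 had 12, 16 and 5 fragments, 15, 24 and 13 fragments, and 20, 20 and 7 fragments, with enrichments of 2.50, 1.28 and 2.56.

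The replicates could be compared at each of the 26 peaks by the share of ChIP fragments that came from replicate 1, which was 48.0% over all narrow peaks. By an exact two-sided binomial test adjusted over all narrow peaks by Benjamini-Hochberg, 3 of the 26 differed beyond counting noise, beside 0.804% of all narrow peaks. They were the promoter peaks of Ehmt2 (log2 of replicate 1 over replicate 2 after scaling -0.21, exact binomial adjusted p = 0.0106), Prdm9 (-0.31, exact binomial adjusted p = 0.0279) and the inner start of Cdyl (-0.24, exact binomial adjusted p = 0.0470). In all 3 replicate 2 was higher. The test finds small shifts only at deep peaks, and these 3 held at least 514 fragments in each replicate. PRDM9-dependent peaks in protein-coding gene bodies had medians of 16 and 18 fragments (replicates 1 and 2). The share of 0.804% is thus not one for peaks of like depth, which was not computed. None of the 15 PRDM9-dependent peaks passed, but at most 58 fragments per replicate leave little power to call a difference. The Zcwpw2 peak at 117902545, with 16 and 4 fragments, had a scaled log2 of 1.88 and an exact binomial adjusted p of 0.236. The outcome at the weak peaks thus says little about agreement between the replicates. Before adjustment 5 of the 26 had p under 0.05, against 9.08% of all narrow peaks. The test measures the spread between these 2 libraries and counts fragments as independent.

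Binding motifs of PRDM9 Cast (31 positions) and PRDM9 Hum (48 positions), as position weight matrices from the study's source data, were scored on both strands of the reference around the PRDM9-dependent peaks. The limit was the score passed by 1% of windows 3000 bp away. Within 150 bp of the centre none of the 15 peaks held a motif above the limit, beside 8.91% of all 62533 PRDM9-dependent narrow peaks. Within 300 bp 2 of the 15 did, beside 12.8%. Both matched the Cast motif, which passed in 9.95% of PRDM9-dependent peaks, and none matched the Hum motif, which passed in 2.89%. With shares this low, counts of 0 and 2 of 15 are close to the background. Within 150 bp the Hum matrix passed in 2.57% of all PRDM9-dependent peaks and the Cast matrix in 6.39%. These shares count matches above the limit and do not measure how many PRDM9 sites hold a motif. The paper located motifs in most break hotspots of either allele, by a search refined on those hotspots. Sites passing within 300 bp lay a median of 145 bp (Cast) and 133 bp (Hum) from the centre, so the 150 bp window misses many of these. The window itself bounds these distances, so the medians do not show that true binding sites were missed.

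The 2 windows with a Cast match are shown on the plus strand of mm10, with the 31 matched bases in capitals. Both matches are on the minus strand.
Ehmt2, chr17:34910832-34911131: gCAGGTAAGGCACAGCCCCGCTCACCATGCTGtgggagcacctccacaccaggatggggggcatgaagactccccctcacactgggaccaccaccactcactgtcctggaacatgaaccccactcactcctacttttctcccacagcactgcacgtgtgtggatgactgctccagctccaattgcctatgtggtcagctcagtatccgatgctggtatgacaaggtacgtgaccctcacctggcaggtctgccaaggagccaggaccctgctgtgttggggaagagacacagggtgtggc
Cdyl, chr13:35796234-35796533: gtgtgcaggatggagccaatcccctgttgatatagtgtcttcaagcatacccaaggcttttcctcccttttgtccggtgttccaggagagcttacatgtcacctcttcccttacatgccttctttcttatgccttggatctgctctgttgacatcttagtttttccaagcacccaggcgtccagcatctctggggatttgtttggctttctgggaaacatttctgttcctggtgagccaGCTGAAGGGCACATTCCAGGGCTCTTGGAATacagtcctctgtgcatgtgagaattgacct
The Ehmt2 match lay 281 bp from the peak centre and scored 15.9 against a limit of 15.5, and the Cdyl match lay 224 bp away and scored 16.8. A match is a description of the reference letters and not a measured binding site. The median GC content of the 15 windows of 300 bp was 50.7%, against 49.3% over all PRDM9-dependent peaks, and their repeat-masked share was 17% against 12%. The windows of the Zcwpw1 peaks at 137814451 and 137815744 were repeat-masked over 100% and 86.7% of their length, and that of the Zcwpw2 peak at 118021414 over 87.3%.

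The other genes of these pathways were read beside the 8. Of the paralogues and further partners all 8 had a start peak, with a median enrichment of 60.6, from Cdyl2 (23.3), the paralogue of Cdyl, to Cbx3 (170), a heterochromatin protein. The 6 further subunits of the SETD1 complex all had one, with a median of 93.7, from Wdr5 (72.3) to Hcfc1 (143). The 11 methyltransferases of lysines 4 and 36 all had one too, with a median of 69.1, from Setd1a (35.3) to Nsd2 (80.1).

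Genes of break formation and strand exchange act in making and repairing double-strand breaks, whose sites are placed mainly by PRDM9. Of 9 genes of break formation 8 had a start peak, with a median enrichment of 37.1, from Rec114 (12.02) to Hormad1 (93.3), and Ccdc36, also called Iho1, had none. All 9 genes of strand exchange had one, with a median of 55.1, from Dmc1 (14.3), the meiotic recombinase, to Psmc3ip (88.9). The 14 other PRDM genes all had one, with a median of 24.1, from Prdm13 (1.402) to Prdm2 (109). At Prdm8, Prdm13 and Prdm14 the strongest start peak was PRDM9-dependent, as at Zcwpw1 and in 8.25% of protein-coding genes with one. This class means only that the centre lay outside the deposited PRDM9-independent regions. The widest broad peak over a start spanned 10800 bp at Prdm8, 3900 bp at Prdm14, 1000 bp at Prdm13 and 11200 bp at Zcwpw1. The strongest start peaks had enrichments of 21.8, 3.53, 1.402 and 2.36 in that order. The widest broad peak need not hold the strongest start peak. At Zcwpw1 the strongest start peak lay under another broad peak, of 1000 bp. The density of PRDM9-dependent narrow peaks per 100 kb of gene body was 2.50 in paralogues and partners, 2.02 in break formation, 2.67 in strand exchange, 2.47 in the methyltransferases, 2.01 in SETD1 subunits and 3.27 in the other PRDM genes, beside 2.92 in all protein-coding genes. The 6 lists held 13, 18, 10, 23, 3 and 56 such peaks in that order. Counting error is large at counts this small, and differences between the lists were not tested.

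**Figure D4:**
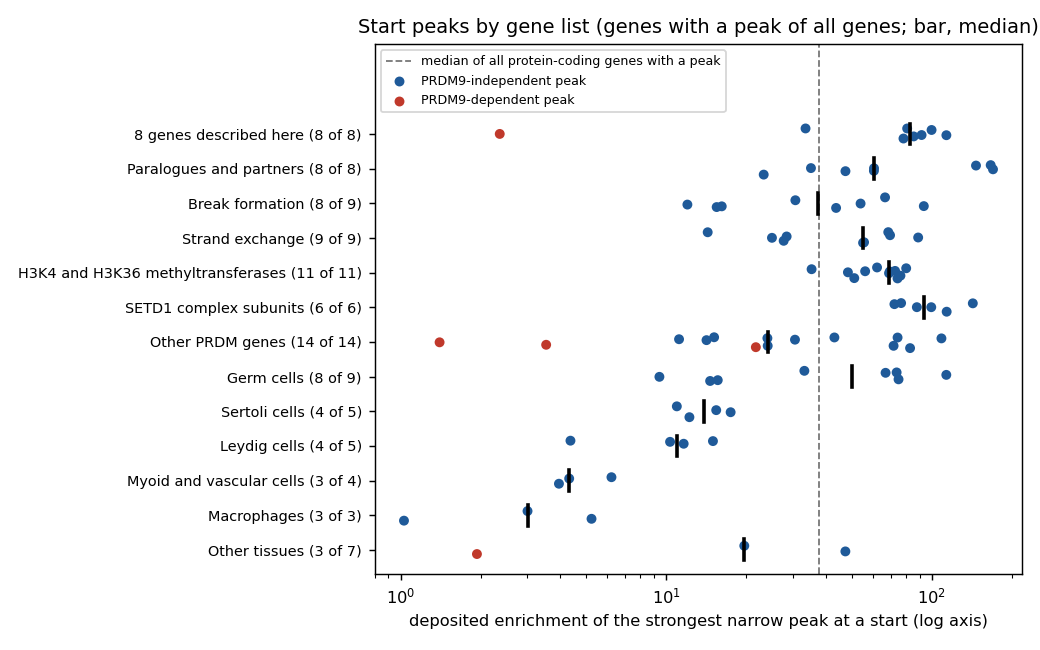
Deposited enrichment of the strongest narrow peak at a start for each gene of each list on a log axis, with the number of genes that have a peak of all genes at left. Black bars are list medians, the dashed line the median of protein-coding genes (37.6), and red points are PRDM9-dependent peaks. The 8 genes described here have a median of 83.1, with Zcwpw1 alone below 10, and the macrophage (3.01) and the myoid and vascular markers (4.31) have the lowest medians of the lists.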

How the data were processed

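Testis chromatin gave 2 H3K4me3 ChIP libraries and 1 input. Per the paper, the authors mapped read pairs to mm10 with BWA and Stampy, removed duplicates and pairs with no read of mapping quality above 0, and called peaks on both replicates jointly. The deposited counts are whole fragments over each narrow peak centre, not scaled for library size. The deposited enrichment is a ratio over local background from both replicates (0 for no enrichment), and the deposited p-value tests it against none. Narrow peaks had p under 1e-06 and broad peaks merged bins with p under 1e-05. Broad peaks and PRDM9-independent regions are positions only.

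Peaks were matched to GENCODE vM21 starts within 1 kb. With 1 condition there was no contrast to fit, and the 2 replicates were compared by exact binomial tests with Benjamini-Hochberg adjustment over 101978 peaks. Intervals cover counting error only. Motif log-odds used a uniform base composition. All peaks of the 8 genes are named, and in other lists the highest, the lowest and up to 5 genes without a peak. The 3 other PRDM genes with a PRDM9-dependent start peak were named after their values were seen. In the list of genes of other tissues, 1 gene is not reported here. The members and lists were chosen with earlier results of these data known. Alternatives were other distances, starts, thresholds, windows and single replicates. The work used samtools 1.23.1 and Python 3.11.15 with pysam 0.24.0, scipy 1.17.1, pandas 2.3.3, numpy 2.4.6 and matplotlib 3.10.9.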

Additional observations from a re-analysis of the deposited data

How the results depend on the processing

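With 500 bp in place of 1 kb, 6 of the 8 genes kept a narrow peak at a start, and Cdyl and Zcwpw2 dropped out. With 2 kb or with p under 1e-10 all 8 had one, and with starts of protein-coding transcripts alone 6 did, without Zcwpw1 and Zcwpw2. Without replicate 1 or without replicate 2 the count was 7, the Zcwpw1 peak dropping out, with the input scaled up to the total of the replicate over peak centres. This scaling multiplies the input so much that weak peaks fail by construction, and unscaled that peak had 30 and 23 ChIP fragments against 10. Broad peaks over protein-coding starts were found in 7 of 8 genes. PRDM9-dependent peaks in gene bodies numbered between 13 (p under 1e-10) and 21 (bodies widened by 5 kb), and 14 without replicate 1 and 15 without replicate 2, counting peaks where the other replicate had more fragments than the input. Motif matches moved from 0 to 2 with 300 bp on each side (12.8% of all PRDM9-dependent peaks) and to 1 with a limit of 5% (22.1% of them). Peaks whose replicates differed numbered 764 in place of 820 with the expected share from PRDM9-independent peaks. The ratio of 1 replicate to the input (1 added to both counts, not scaled for depth) is another measure than the joint enrichment, and it lay over 1.5 times away from it at 3 named peaks. The value at the outer Cdyl start, centre 35660444, was 48.7 without replicate 2 against 78.3. With no count added, replicate 1 over input was 72.5 there, so this gap rests largely on the count added to 2 input fragments. The value at the Cdyl peak 35704823 was 2.80 without replicate 2 against 5.05. That at the Zcwpw2 peak 117902545 was 0.417 without replicate 1 and 1.42 without replicate 2 against 0.723. No paired analysis was possible because a single condition leaves no groups to pair. Low input counts limit the ratios, with a median of 8 fragments at the 15 PRDM9-dependent peaks, 5 at the start of Prdm9 and 2 at the outer start of Cdyl.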
